A study of Mus musculus with 16 samples.

Results

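The genes described here are 10 genes of blood vessel growth and of the endothelium: the angiopoietin ligands Angpt1 and Angpt2, the VEGF ligand Vegfa, the receptors Tek, Tie1, Kdr and Flt1, the endothelial junction genes Pecam1 and Cdh5, and the transcription factor gene Sox17. They were chosen by name and not by a measured value, and they are 10 of the 46078 genes in the deposited table. The filter on low counts left 16101 genes, and 10 of the 10 were among them.

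RNA was measured in 16 libraries of B16F10-GP melanoma tumours, 4 in each of 4 groups. B16F10 is a pigmented melanoma line of the C57BL/6 mouse; the GP form was implanted in 25% Matrigel, a basement membrane gel, on the flanks of female C57BL/6 mice aged 6 to 8 weeks. The group given 5 Gy with QH-II-066 received X-rays on day 10 in the morning and the compound, known here by its code name, from that evening. The 5 Gy group received the radiation alone. The QH-II-066 group received the compound alone at 10 mg/kg by daily intraperitoneal injection for 7 days. The group labelled untreated was read as the vehicle controls of the protocol, which its label does not state. The combined group had the same daily dose. Radiation was given to the right flank only, and the labels do not say which flank a library came from. Nor do they tie the 4 replicates of a group to separate mice, so each p-value reflects only how far these libraries varied, which may be technical in part. All tumours came from 1 implanted cell line, and the vessels in them from the host mouse.

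Tek (also called Tie2) and Tie1 are the tyrosine kinase receptors of the angiopoietin system. Angpt1, made mainly by cells around the vessel, activates Tek and stabilises vessels, whereas Angpt2, made by endothelial cells, acts on the same receptor with effects that depend on the setting and is released when vessels are remodelled. Vegfa, which hypoxic cells induce, drives endothelial growth through Kdr (VEGFR2), and Flt1 (VEGFR1) binds the same ligand and can act as a decoy for it.

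Of the 4 receptor genes, Tek passed the test after 5 Gy and Tie1, Kdr and Flt1 did not. Their upstream sequences are shown to set these receptors side by side. Each is the 250 bases before the RefSeq start, 5′ to 3′ on the gene's strand, from the GRCm38.p6 build. The windows lie at chr4:94739039-94739288 on the + strand for Tek, at chr4:118489850-118490099 on the - strand for Tie1, at chr5:75978456-75978705 on the - strand for Kdr and at chr5:147726012-147726261 on the - strand for Flt1. Capitals mark GGAAGT or its reverse complement ACTTCC, the letters of an ETS-type motif; ETS factors are known regulators of endothelial genes.
Tek: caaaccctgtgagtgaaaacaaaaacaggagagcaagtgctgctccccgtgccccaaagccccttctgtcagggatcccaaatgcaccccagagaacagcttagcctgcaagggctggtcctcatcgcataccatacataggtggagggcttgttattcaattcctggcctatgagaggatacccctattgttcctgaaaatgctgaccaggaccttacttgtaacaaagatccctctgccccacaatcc
Tie1: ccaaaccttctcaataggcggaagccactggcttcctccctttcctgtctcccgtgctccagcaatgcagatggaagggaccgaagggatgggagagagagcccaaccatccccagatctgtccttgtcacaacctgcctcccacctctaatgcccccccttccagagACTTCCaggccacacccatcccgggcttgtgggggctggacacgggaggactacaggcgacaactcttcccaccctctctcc
Kdr: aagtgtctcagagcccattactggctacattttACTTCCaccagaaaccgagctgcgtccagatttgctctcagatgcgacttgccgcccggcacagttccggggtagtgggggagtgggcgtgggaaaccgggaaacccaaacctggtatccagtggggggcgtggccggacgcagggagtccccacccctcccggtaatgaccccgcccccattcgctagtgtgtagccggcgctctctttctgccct
Flt1: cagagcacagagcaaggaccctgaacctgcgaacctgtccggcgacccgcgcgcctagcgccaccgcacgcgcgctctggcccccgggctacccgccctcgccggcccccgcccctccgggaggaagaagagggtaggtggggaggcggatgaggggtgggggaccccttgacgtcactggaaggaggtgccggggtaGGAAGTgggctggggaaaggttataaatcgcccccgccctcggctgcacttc
GGAAGT or ACTTCC was found once in the Tie1, Kdr and Flt1 windows and not in that of Tek. These letters occur in 19.7% of 32851 upstream windows of the same length. The shorter core GGAA, or TTCC on the other strand, which GGAAGT contains, had 2 matches for Tek, 7 for Tie1, 4 for Kdr and 4 for Flt1, and 93.4% of windows hold at least 1. The letters ACGTG or CACGT, a form of the core of the hypoxia response element, were in none of the 4 windows and in 16.6% of all. GCGTG, another form of that core, was not searched for. It can be read in the Kdr window, and its reverse complement CACGC in that of Flt1. RefSeq windows were matched for 5 of the 10 genes. The Tie1 window lies largely inside the gene as counted, whose span reaches chr4:118490061. Most of that window, with its marked ACTTCC, is therefore not upstream of the counted gene. A match is only a match of letters, and no binding was measured.

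In the table's mm10 coordinates, Tek lies at chr4:94739289-94874976 and Tie1 at chr4:118471191-118490061. Kdr lies at chr5:75932827-75978458 and Flt1 at chr5:147561604-147726011. Angpt1 lies at chr15:42424727-42676977, Angpt2 at chr8:18690263-18741562 and Vegfa at chr17:46016993-46032377. Pecam1 lies at chr11:106654217-106750628, Cdh5 at chr8:104101625-104144502 and Sox17 at chr1:4490931-4497354. Values are fragments counted over the annotated exons of each gene, without regard to strand. Exons of the antisense gene Gm17473 overlap 283 exon bases of Angpt1, or 6.65% of them, and Gm17473 had at most 4 counts in a library. Exons of Gm37587 overlap 804 bases of Sox17, or 16.8%, and Gm37587 had 0 counts.

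Total counts per library ranged from 6994198 to 40799942, the lowest being replicate 4 of the combined group. No 2 of the 16 libraries held identical values. Levels are given as CPM, counts scaled to library size by TMM, and 3 counts, the limit that a count of 0 allows, correspond to 0.0796 to 0.447 CPM across the libraries (counting error only). The 17 further endothelial genes fixed for this work were all tested, and none was at 0 in any library. No fibroblast or melanocyte marker was at 0 either, so being detected does not test the endothelial label. The summed level of the 17 endothelial genes was 403 to 510 CPM in the combined group and 442 to 529 CPM after 5 Gy. It was 402 to 453 CPM after QH-II-066 and 388 to 473 CPM in untreated tumours. Transcripts of tissue around the tumour differed far more between libraries. The 5 keratin genes used as skin epithelium markers summed to 2432 and 1785 CPM in replicates 2 and 4 of the 5 Gy group and to 757, 244 and 1129 CPM in replicates 2, 3 and 4 of the combined group, and stood at 6.11 CPM or less in the other 11 libraries.

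Expressed per kilobase of exon, Vegfa was the most abundant of the 10 genes, at 27.7 ± 6.94 CPM per kb (SD, n = 16 libraries), followed by Angpt2 at 12.3 ± 3.91, Cdh5 at 7.87 ± 3.68 and Pecam1 at 6.90 ± 2.14. Tie1 stood at 3.10 ± 1.06, Kdr at 2.29 ± 0.74 and Flt1 at 1.79 ± 0.61 CPM per kb. Tek, Angpt1 and Sox17 were the lowest, at 0.69 ± 0.40, 0.39 ± 0.24 and 0.22 ± 0.12 CPM per kb. Of neighbours in this order, Cdh5 and Pecam1, Tie1 and Kdr, Kdr and Flt1, Tek and Angpt1, and Angpt1 and Sox17 differed by less than the larger of their SDs. The libraries were made by probe capture, and how well the probes of each gene capture it was not measured.

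**Figure D1:**
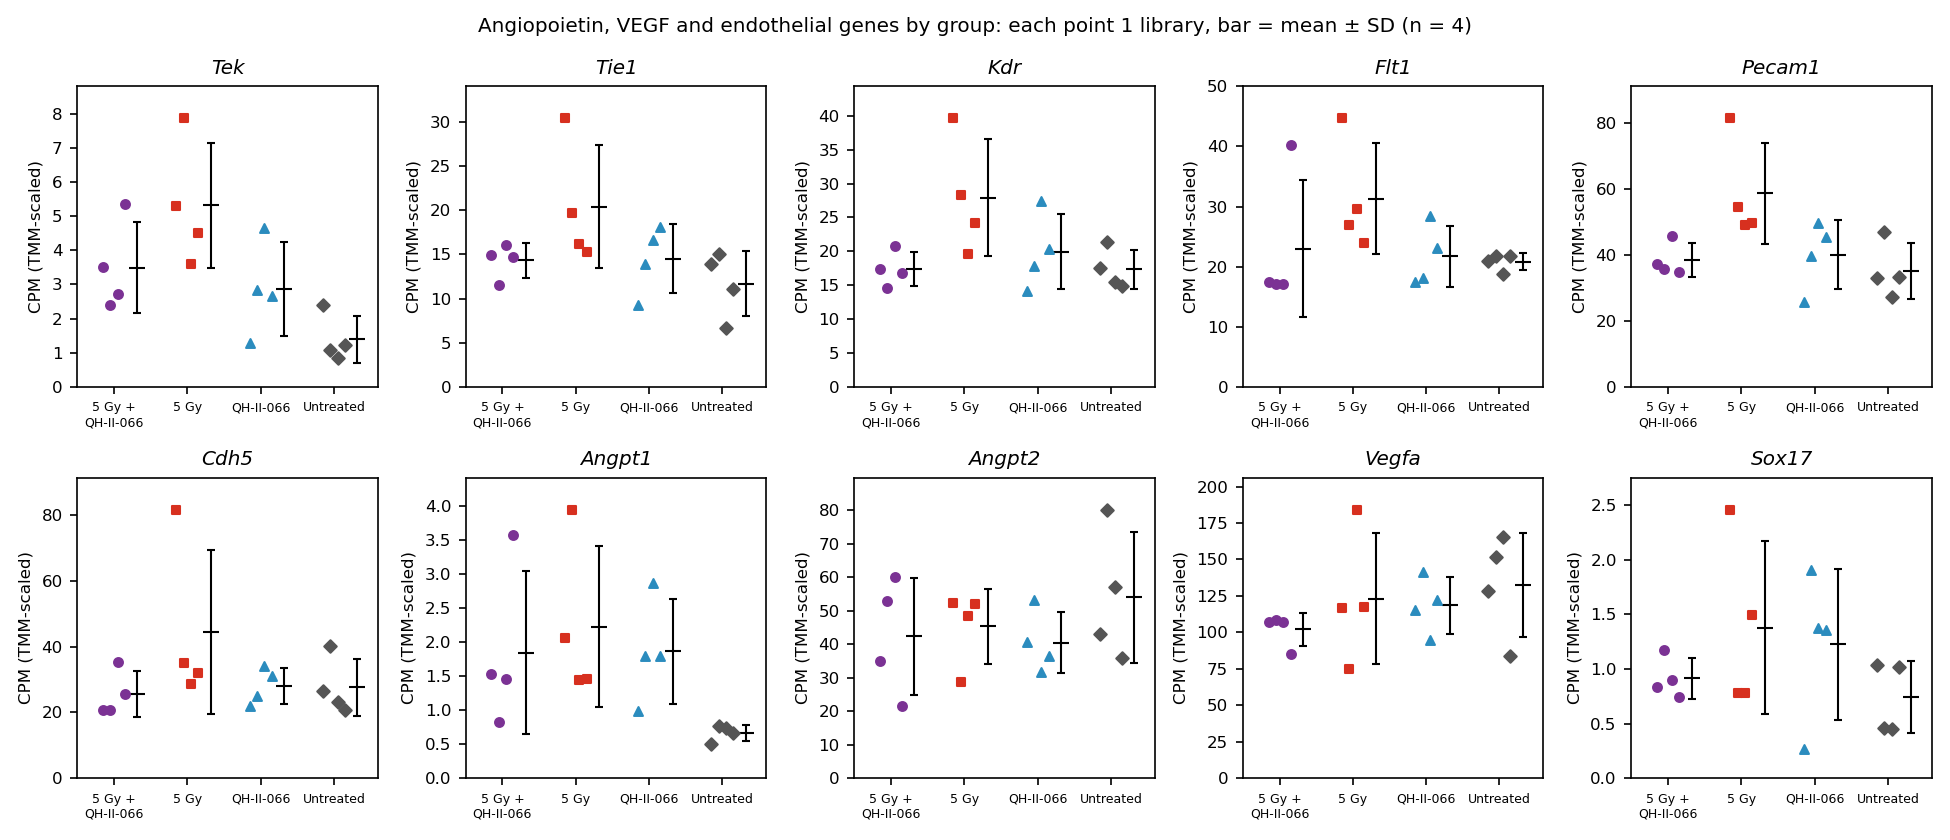
Levels of the 10 genes in TMM-scaled CPM (linear axes from 0), with 1 panel per gene and the groups 5 Gy with QH-II-066, 5 Gy, QH-II-066 and untreated; points are libraries and bars the mean ± SD of 4 libraries. For Tek, Tie1, Flt1, Pecam1 and Angpt1 the 4 libraries of the 5 Gy group lie above the 4 untreated libraries, as for 5.97% of all genes. For Cdh5 1 library of the 5 Gy group, at 81.6 CPM, stands apart.

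Of the receptors, Tek showed the clearest difference. It was the only 1 of the 10 genes past the threshold of an adjusted p of 0.05 in any comparison of the main analysis. Tek stood at 3.52, 2.39, 2.72 and 5.36 CPM in the combined group, at 5.30, 7.87, 3.61 and 4.51 CPM after 5 Gy, at 1.29, 2.84, 4.65 and 2.65 CPM after QH-II-066 and at 2.41, 1.08, 0.831 and 1.23 CPM in untreated tumours. The 5 Gy libraries all lay above the untreated libraries, and those of the combined group and of QH-II-066 overlapped the untreated group only through its replicate 1. Tek was higher after 5 Gy than in untreated tumours by 1.94 ± 0.43 on the log2 scale (SE, adjusted p = 0.0425, edgeR quasi-likelihood test, adjusted over 16101 genes). In bulk tumour RNA, more cells that express Tek, endothelial or other, and more RNA per cell cannot be told apart.

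The call on Tek was close to the threshold. It was lost when replicate 2 or 4 of the 5 Gy group, any 1 of the 4 untreated libraries, replicate 2 or 4 of QH-II-066 or replicate 3 of the combined group was left out. The log2 difference was 1.69 to 2.34 over the 16 fits that each left out 1 library. Where the call was lost, the unadjusted p for Tek was lowest without replicate 1 of the untreated group, at 0.000105 (edgeR). It was highest without replicate 3 of that group, at 0.00186 (edgeR), against 0.000373 in the main fit. The adjusted p depends on all genes, and 0 genes were called without either library. Leaving out the 5 libraries with skin transcripts kept only replicates 1 and 3 of 5 Gy and replicate 1 of the combined group. The difference in that fit, given without a p-value for this reason, was 1.68 ± 0.50 (edgeR). With the adipocyte marker score as a covariate, an alternative chosen after seeing the data, it was 1.08 ± 0.35 (unadjusted p = 0.0073, adjusted p = 0.681, edgeR). The 2 highest Tek values, 7.87 and 5.36 CPM, were in libraries with skin transcripts, the second resting on 36 counts. The summed adipocyte markers were 199 CPM in the first and 87.1 CPM in the second, against 0.0769 to 54.4 CPM in untreated tumours. The third, 5.30 CPM in replicate 1 of 5 Gy, came with 0.463 CPM of skin and 93.6 CPM of adipocyte markers. Adipocyte markers were highest in replicate 3 of QH-II-066, at 683 CPM, where Tek was 4.65 CPM. The part of skin and adipose tissue in the Tek difference was not tested beyond these fits.

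Tie1 stood at 14.9, 11.5, 16.1 and 14.7 CPM in the combined group, at 30.4, 19.7, 16.2 and 15.3 CPM after 5 Gy, at 9.29, 13.9, 16.7 and 18.2 CPM after QH-II-066 and at 13.9, 15.1, 6.72 and 11.04 CPM in untreated tumours. The 5 Gy libraries were all above the untreated ones, by 0.80 ± 0.27 on the log2 scale, with an adjusted p of 0.141 in edgeR that misses the threshold. Kdr stood at 17.4, 14.6, 20.7 and 16.8 CPM in the combined group, at 39.6, 28.4, 19.5 and 24.2 CPM after 5 Gy, at 14.2, 17.8, 27.4 and 20.4 CPM after QH-II-066 and at 17.6, 21.3, 15.5 and 14.8 CPM in untreated tumours. For Kdr the lowest 5 Gy library lay below the highest untreated library, and the difference was 0.69 ± 0.22 (adjusted p = 0.123, edgeR).

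Flt1 stood at 17.5, 17.2, 17.1 and 40.2 CPM in the combined group, at 44.7, 26.9, 29.6 and 24.0 CPM after 5 Gy, at 17.5, 18.1, 28.3 and 23.1 CPM after QH-II-066 and at 20.9, 21.8, 18.8 and 21.7 CPM in untreated tumours. The 5 Gy libraries did not overlap the untreated ones, by a difference of 0.59 ± 0.27 (adjusted p = 0.317, edgeR). In the combined group 3 libraries lay below every untreated library and replicate 4, the shallowest library, above all of them.

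The ligands differed from each other. Angpt1 stood at 1.54, 0.823, 1.46 and 3.57 CPM in the combined group, at 2.06, 3.95, 1.45 and 1.46 CPM after 5 Gy, at 0.989, 1.80, 2.87 and 1.80 CPM after QH-II-066 and at 0.501, 0.769, 0.735 and 0.668 CPM in untreated tumours. Every library of the 3 treated groups was above every untreated library; the 3 comparisons share these 4 untreated libraries. The differences from untreated were 1.41 ± 0.47 for the combined group (adjusted p = 0.298), 1.73 ± 0.47 after 5 Gy (adjusted p = 0.0691) and 1.47 ± 0.47 after QH-II-066 (adjusted p = 0.546), all in edgeR and all short of the threshold. The highest values, 3.95 and 3.57 CPM, were again in the libraries of replicate 2 of 5 Gy and replicate 4 of the combined group.

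Angpt2 stood at 35.1, 52.8, 60.2 and 21.4 CPM in the combined group, at 52.3, 28.7, 48.5 and 51.9 CPM after 5 Gy, at 40.7, 53.1, 31.7 and 36.4 CPM after QH-II-066 and at 42.9, 80.2, 57.1 and 35.9 CPM in untreated tumours. The groups overlapped, and the difference from untreated was -0.34 ± 0.31 for the combined group, -0.25 ± 0.31 for 5 Gy and -0.42 ± 0.31 for QH-II-066. Vegfa stood at 107, 109, 107 and 85.4 CPM in the combined group, at 116, 75.0, 184 and 117 CPM after 5 Gy, at 115, 142, 94.9 and 122 CPM after QH-II-066 and at 128, 152, 165 and 84.1 CPM in untreated tumours. These groups overlapped as well, with a difference from untreated of -0.37 ± 0.24 for the combined group, -0.10 ± 0.24 for 5 Gy and -0.16 ± 0.24 for QH-II-066.

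Within a library, the level of Angpt2 over that of Angpt1, both per kilobase, describes the balance of the ligands of Tek without reference to library size. On the log2 scale this ratio was 4.72, 6.21, 5.57 and 2.79 in the combined group, 4.87, 3.07, 5.27 and 5.36 after 5 Gy, 5.57, 5.08, 3.67 and 4.54 after QH-II-066 and 6.63, 6.91, 6.48 and 5.95 in untreated tumours. Every 5 Gy and QH-II-066 library lay below every untreated library, and the combined group overlapped the untreated group through its replicate 2. The ratio rests on 15 to 126 counts of Angpt1 in a library.

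Of the junction genes, Pecam1, an adhesion molecule of endothelial cells, platelets and leukocytes, stood at 37.3, 35.7, 45.8 and 34.8 CPM in the combined group, at 81.3, 54.5, 48.9 and 49.5 CPM after 5 Gy, at 25.6, 39.5, 49.5 and 45.3 CPM after QH-II-066 and at 33.0, 47.0, 27.2 and 33.2 CPM in untreated tumours. After 5 Gy all 4 libraries were above the untreated libraries and above the combined group, with a difference from untreated of 0.74 ± 0.22 (adjusted p = 0.0894, edgeR). Cdh5, the cadherin of endothelial junctions, stood at 20.8, 20.7, 35.4 and 25.6 CPM in the combined group, at 81.6, 35.0, 28.8 and 32.05 CPM after 5 Gy, at 21.8, 25.0, 33.97 and 31.02 CPM after QH-II-066 and at 26.4, 40.1, 23.2 and 20.6 CPM in untreated tumours. Only replicate 1 of the 5 Gy group lay above the range of the other groups; the difference from untreated was 0.68 ± 0.31 (adjusted p = 0.313, edgeR) and 0.22 without that library.

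Sox17, a transcription factor gene of arterial endothelium, had 5 to 69 counts in a library, the fewest of the 10 genes. It averaged 0.913 ± 0.186 CPM in the combined group, 1.38 ± 0.793 CPM after 5 Gy, 1.22 ± 0.689 CPM after QH-II-066 and 0.741 ± 0.331 CPM in untreated tumours (SD, n = 4 each). The groups overlapped, and the difference of 5 Gy from untreated was 0.89 ± 0.53 (adjusted p = 0.485, edgeR).

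Replicate 1 of the 5 Gy group held the highest level of 6 of the 10 genes, namely Cdh5, Pecam1, Kdr, Tie1, Flt1 and Sox17, and replicate 2 the highest of Tek and Angpt1. Vegfa was highest in replicate 3 of the 5 Gy group and Angpt2 in replicate 2 of the untreated group. Skin markers summed to 0.463 CPM in replicate 1 of the 5 Gy group and to 2432 CPM in its replicate 2.

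Relative to Cdh5, per kilobase and on the log2 scale, Tek stood at -2.81, -3.36, -3.95 and -2.50 in the combined group, at -4.18, -2.40, -3.23 and -3.07 after 5 Gy, at -4.33, -3.38, -3.11 and -3.79 after QH-II-066 and at -3.70, -5.46, -5.05 and -4.31 in untreated tumours. All groups overlapped in this ratio, with means of -3.22 ± 0.74 after 5 Gy and -4.63 ± 0.78 in untreated tumours (SD, n = 4). Relative to Tie1, Tek ran from -2.459 to -1.262 after 5 Gy and from -3.746 to -2.473 in untreated tumours, narrowly without overlap. Relative to Pecam1 these 2 groups overlapped, with Tek at -3.54 to -2.39 after 5 Gy and -5.05 to -3.37 in untreated tumours. Kdr relative to Cdh5 averaged -1.76 ± 0.33 in the 5 Gy group against -1.82 ± 0.19 in untreated tumours. Flt1 relative to Cdh5 averaged -2.17 ± 0.37 in the 5 Gy group against -2.12 ± 0.39 in untreated tumours.

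**Figure D2:**
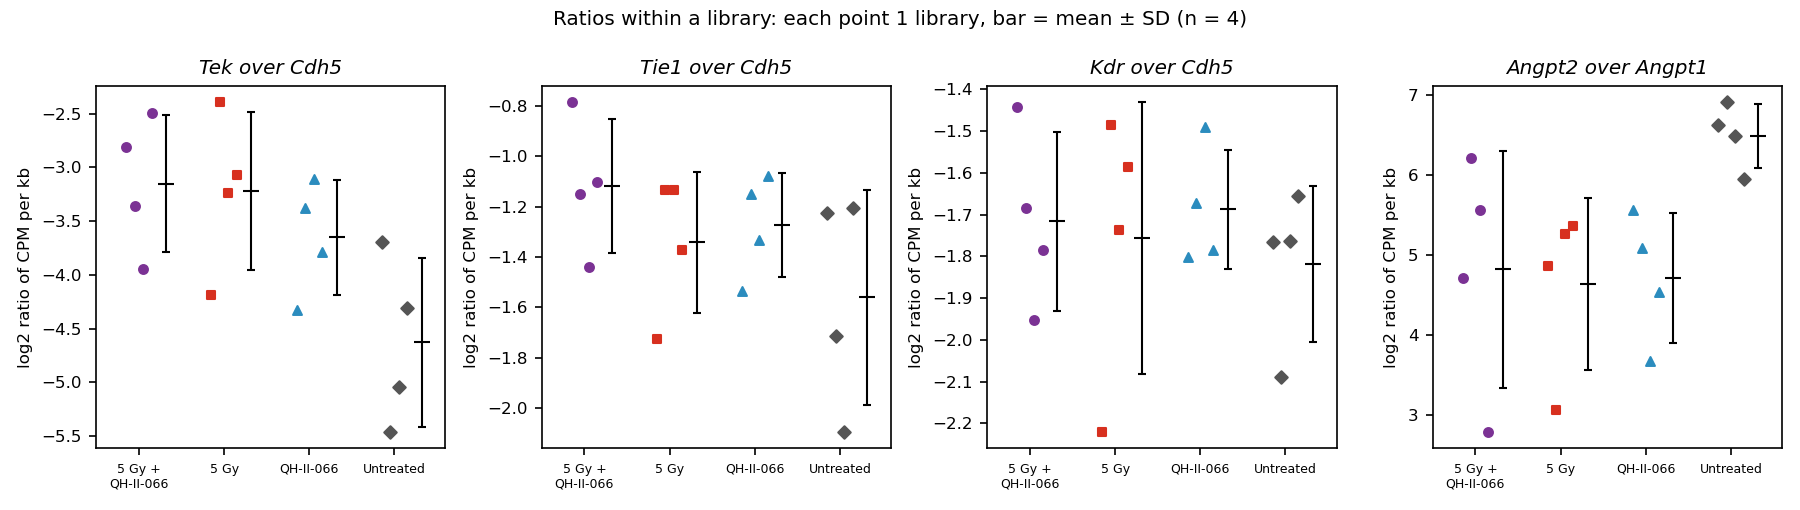
Log2 ratios of CPM per kilobase in each library: Tek, Tie1 and Kdr over Cdh5, and Angpt2 over Angpt1, in the 4 treatment groups; points are libraries and bars the mean ± SD of 4 libraries. For Angpt2 over Angpt1 the untreated libraries, from 5.95 to 6.91, lie above the 5 Gy and QH-II-066 libraries.

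Counted over the 10 genes, 1 was called higher and 0 lower after 5 Gy against untreated, where 1.26% of all tested genes were called in either direction. At an unadjusted p under 0.05 the count was 7 of the 10, against 15.1% of all genes, and for 5 of the 10 every 5 Gy library was above every untreated library, against 5.97% of all genes. The median log2 difference of the 10 was 0.71, against -0.081 over all genes. On the same counts DESeq2 called 4 of the 10 (Tek, Angpt1, Pecam1 and Kdr), beside 1224 of all genes. Limma-voom with sample weights called 2 (Tek and Angpt1), beside 790 of all genes.

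For QH-II-066 against untreated, edgeR called 0 of the 10 genes and 0% of all genes; 2 of the 10 had an unadjusted p under 0.05, against 8.17% of all genes. The 2 were Tek, at 1.04 ± 0.42, and Angpt1, at 1.47 ± 0.47, and the groups did not overlap for Angpt1 alone, which is 1 of 10 beside 1.37% of all genes higher in every library. The other 8 ranged from -0.42 for Angpt2 to 0.72 for Sox17. DESeq2 called 0 of the 10, beside 16 of all genes. Limma-voom called 2, Tek and Angpt1, beside 4622 of the 16101 genes. In the same comparison all 5 adipocyte markers had an unadjusted p under 0.05 and lay above 0, with a median log2 difference of 3.65, as did 4 of the 6 fibroblast markers, a list with a median of 0.995. The skeletal muscle markers had a median of 2.84 with 0 of 6 under an unadjusted 0.05. No marker passed the adjusted test, and the part of these tissues in the values of Tek and Angpt1 was not tested.

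For the combined group against untreated, edgeR called 0 of the 10 and 0% of all genes; 2 of the 10 had an unadjusted p under 0.05, against 16.2% of all genes, again Tek, at 1.31 ± 0.43, and Angpt1, at 1.41 ± 0.47. Angpt1 was the only 1 of the 10 with no overlap, beside 2.53% of all genes higher in every library. DESeq2 and limma-voom called 0 of the 10, and DESeq2 called 206 of all genes. All 6 fibroblast markers (median 1.31) and all 5 skin markers had an unadjusted p under 0.05 and lay above 0 here, and 0 of either list passed the adjusted test.

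Against 5 Gy, the log2 difference of the combined group was below 0 for all 10 genes, with a median of -0.54 beside -0.062 over all genes, of which 44.3% lay above 0. None of the 10 passed the test: edgeR, DESeq2 and limma-voom each called 0 of the 10 and edgeR called 0% of all genes. At an unadjusted p under 0.05, 3 of the 10 passed, against 19.5% of all genes, and Pecam1 was the only 1 of the 10 in which every combined library lay below every 5 Gy library, beside 3.97% of all genes. This comparison and the one with untreated tumours share the combined libraries.

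Other vascular lists were split or lay below 0 against 5 Gy. Of the 17 further endothelial genes, 11 lay below 0 and 6 above, with a median of -0.14, and of the 11 further VEGF and angiopoietin pathway genes 8 lay below and 3 above, with a median of -0.23. All 11 sprouting and Notch genes (median -0.55) and all 9 pericyte genes (median -0.61) lay below 0. Markers of other tissues lay below 0 as well: all 6 fibroblast markers (median -1.16, 4 at an unadjusted p under 0.05), all 5 macrophage markers (median -0.90, 4 likewise), all 5 adipocyte markers (median -2.12) and all 6 skeletal muscle markers (median -1.29). Of the 5 melanocyte markers, 3 lay above 0 and 2 below, with a median of 0.39 and 3 at an unadjusted p under 0.05 (edgeR). Of all genes in this comparison, 19.5% had an unadjusted p under 0.05 and 44.3% lay above 0. None of the listed genes passed the adjusted test in edgeR, and the part of these tissues in the values of the 10 was not tested.

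Between the combined group and QH-II-066, the log2 differences of the 10 genes ran from -0.41 for Sox17 to 0.27 for Tek. In edgeR 0 of the 10 passed an adjusted or an unadjusted p of 0.05, beside 0% and 3.65% of all genes. DESeq2 and limma-voom called 0 of the 10, and DESeq2 called 48 of all genes. The interaction of radiation and drug asks whether the drug's effect was the same with and without radiation; a negative value means that the log2 difference made by the drug was smaller, or more negative, in irradiated tumours. For it, edgeR called 0 of the 10 and 0% of all genes. At an unadjusted p under 0.05, 4 of the 10 passed, against 6.96% of all genes, namely Tek at -1.67 ± 0.59, Angpt1 at -1.80 ± 0.65, Kdr at -0.89 ± 0.32 and Pecam1 at -0.79 ± 0.31. DESeq2 called 0 of the 10, beside 59 of all genes. Limma-voom called Tek and Angpt1, beside 492 of all genes. Markers of other tissues had values of the same sign in the interaction: all 6 fibroblast markers (median -2.06), all 5 macrophage markers (median -1.35) and all 5 adipocyte markers (median -6.06) were below 0 with an unadjusted p under 0.05, and 0 passed the adjusted test. All 5 melanocyte markers lay above 0 in the interaction, with a median of 0.36 and 1 at an unadjusted p under 0.05 (edgeR). The part of these tissues in the values of the 10 was not tested.

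**Figure D3:**
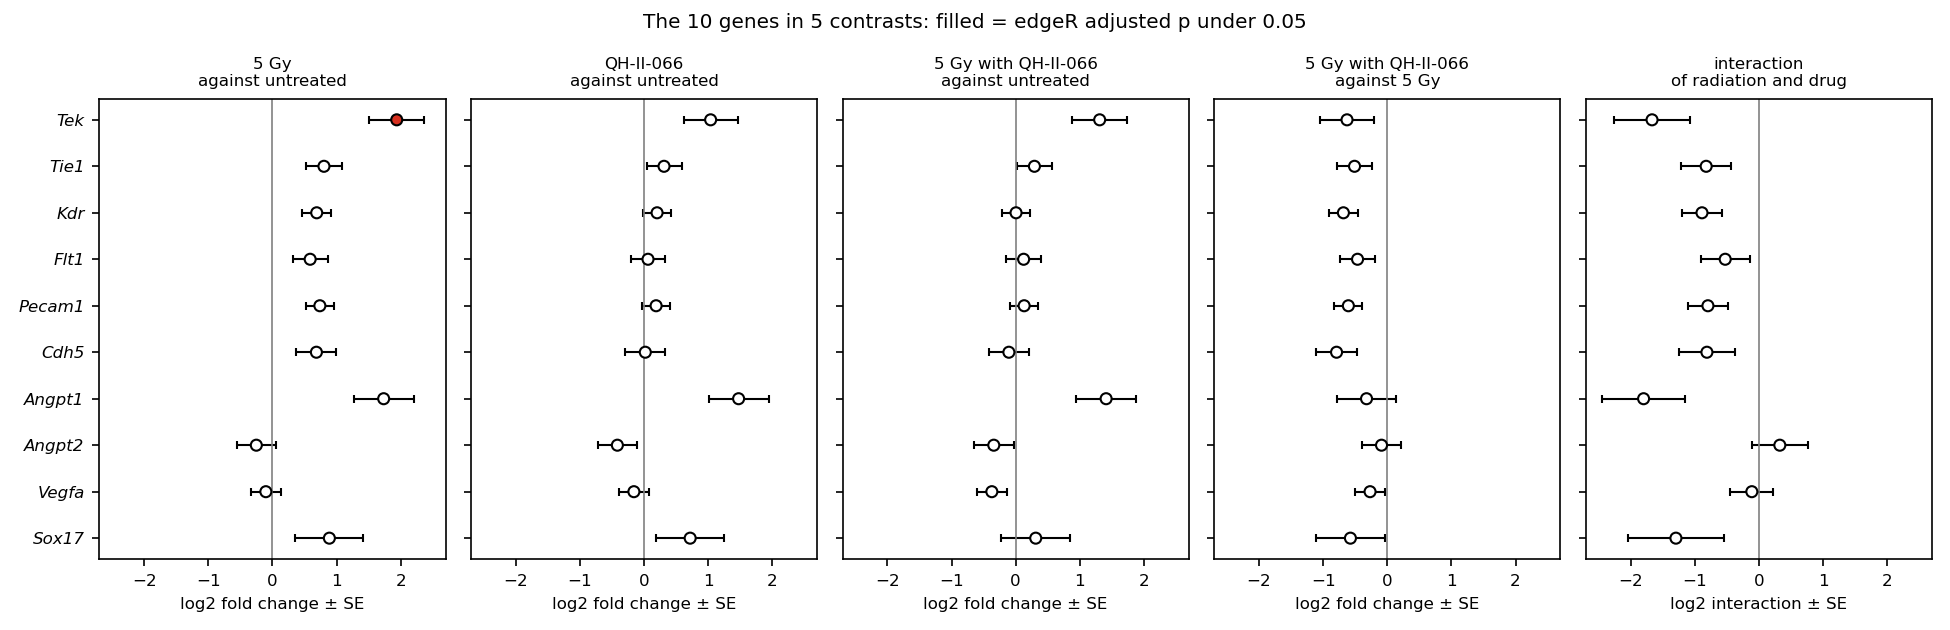
Log2 differences with standard errors for the 10 genes in 5 contrasts, from the edgeR fit; filled symbols mark an adjusted p under 0.05. Tek in 5 Gy against untreated, at 1.94, is the only filled symbol, and in 5 Gy with QH-II-066 against 5 Gy all 10 values lie below 0, where 11 of the 17 further endothelial genes did.

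Other lists of the same tissue compartment were read beside the 10 genes. Of 11 further VEGF and angiopoietin pathway genes, 1 was called higher after 5 Gy, against 1.26% of all genes: Svep1, a matrix protein that binds angiopoietins and Tie1, stood at 16.6 ± 6.45 CPM after 5 Gy and 4.94 ± 1.78 CPM in untreated tumours (SD, n = 4), a difference of 1.75 ± 0.36 (adjusted p = 0.0358, edgeR). Of 11 sprouting and endothelial Notch genes, 1 was called: Aplnr, the apelin receptor, at 18.5 ± 6.66 CPM after 5 Gy and 6.29 ± 2.50 CPM in untreated tumours, a difference of 1.55 ± 0.32 (adjusted p = 0.0363, edgeR). All 11 of that list had a log2 difference above 0, with a median of 0.60, beside 38.2% of all genes above 0.

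Of the 17 further endothelial genes, 0 were called in edgeR after 5 Gy, against 1.26% of all genes. An unadjusted p under 0.05 was found for 7, against 15.1% of all genes. Of the 17, 13 lay above 0 and 4 below, and the median was 0.54. S1pr1, a sphingosine phosphate receptor, gave 0.70 ± 0.21 (adjusted p = 0.0887, edgeR) and Esam, an adhesion molecule, 0.59 ± 0.20 (adjusted p = 0.142, edgeR). Of 9 pericyte genes, 0 were called in edgeR, 7 had an unadjusted p under 0.05, and 9 lay above 0, with a median of 0.98. Of all genes, 38.2% lay above 0. Ndufa4l2, at 1.41 ± 0.35, and Rgs5, at 0.98 ± 0.26, came nearest, with adjusted p-values of 0.0553 and 0.0619 in edgeR. Of 5 lymphatic endothelial genes, 0 were called in edgeR and 2 had an unadjusted p under 0.05. In that list 4 lay above 0 and 1 below, with a median of 1.40 and a lowest value of -0.32. The hyaluronan receptor Lyve1 gave 2.57 ± 0.78 (adjusted p = 0.0964, edgeR) and Mmrn1, the highest, 3.39 ± 1.14 (adjusted p = 0.134, edgeR). Of 13 hypoxia-induced genes, 0 were called in edgeR, 1 had an unadjusted p under 0.05, and the median was -0.07, beside -0.081 over all genes; Egln3 gave 0.84 ± 0.35 and P4ha1 -0.17 ± 0.13.

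Markers of other tissues differed after 5 Gy too. All 6 fibroblast markers were called higher, with a median of 2.53, where 1.26% of all genes were called in either direction. Their sum was 1383 to 3118 CPM after 5 Gy and 312 to 571 CPM in untreated tumours. The collagen genes Col1a1 and Col3a1 rose by 2.33 ± 0.38 and 2.52 ± 0.43, and the receptor gene Pdgfra by 2.53 ± 0.44. The matrix genes Dcn, Lum and Postn rose by 2.83 ± 0.56, 3.04 ± 0.66 and 2.14 ± 0.42, and the adjusted p-values of the 6 ran from 0.0227 for Col1a1 to 0.0409 for Lum (edgeR). Of 5 macrophage markers, Mrc1 and Cd163 were called higher, at 2.05 ± 0.33 and 3.61 ± 0.58 (adjusted p = 0.0227 for each, edgeR).

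The skeletal muscle markers summed to 79.4, 2223, 3.92 and 1521 CPM after 5 Gy, against 3.68, 10.9, 96.5 and 46.9 CPM in untreated tumours. The high sums were those of replicates 2 and 4, and the groups overlapped. All 6 muscle markers lay above 0, with a median of 4.68, beside 38.2% of all genes above 0. Of the 6, 0 were called in edgeR and 2 had an unadjusted p under 0.05, against 15.1% of all genes. The 2 were Mylpf at 3.82 ± 1.52 and Myl1 at 4.79 ± 2.15. With a muscle score as covariate Tek stood at 1.82 ± 0.48 (adjusted p = 0.133, edgeR).

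Adipocyte markers summed to 83.8 to 199 CPM after 5 Gy and to 0.0769 to 54.4 CPM in untreated tumours; 0 of 5 were called and 0 had an unadjusted p under 0.05 in edgeR, with Lep at 2.97 ± 1.41 and Cidec at 2.85 ± 1.37. Of the 5 skin markers, 0 were called and 5 had an unadjusted p under 0.05 in edgeR, against 15.1% of all genes. Krt10 averaged 299.7 CPM after 5 Gy and 0.0936 CPM in untreated tumours (adjusted p = 0.0513, edgeR), and Krt5 averaged 343 CPM after 5 Gy and 0.0835 CPM in untreated tumours (adjusted p = 0.0641, edgeR). Among platelet markers, a cell type that also carries Pecam1, 2 of 4 were tested and 0 called in edgeR, with Pf4 at 1.89 ± 0.56 (unadjusted p under 0.05) and Itga2b at 0.80 ± 0.47. All 5 melanocyte markers lay below 0, at a median of -0.35; 0 were called and 2 had an unadjusted p under 0.05 in edgeR, Dct at -0.35 ± 0.15 and Pmel at -0.30 ± 0.13. Beyond the fits with the muscle score, with the adipocyte score and without the skin-bearing libraries, the part of these tissues in the vascular differences was not tested.

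**Figure D4:**
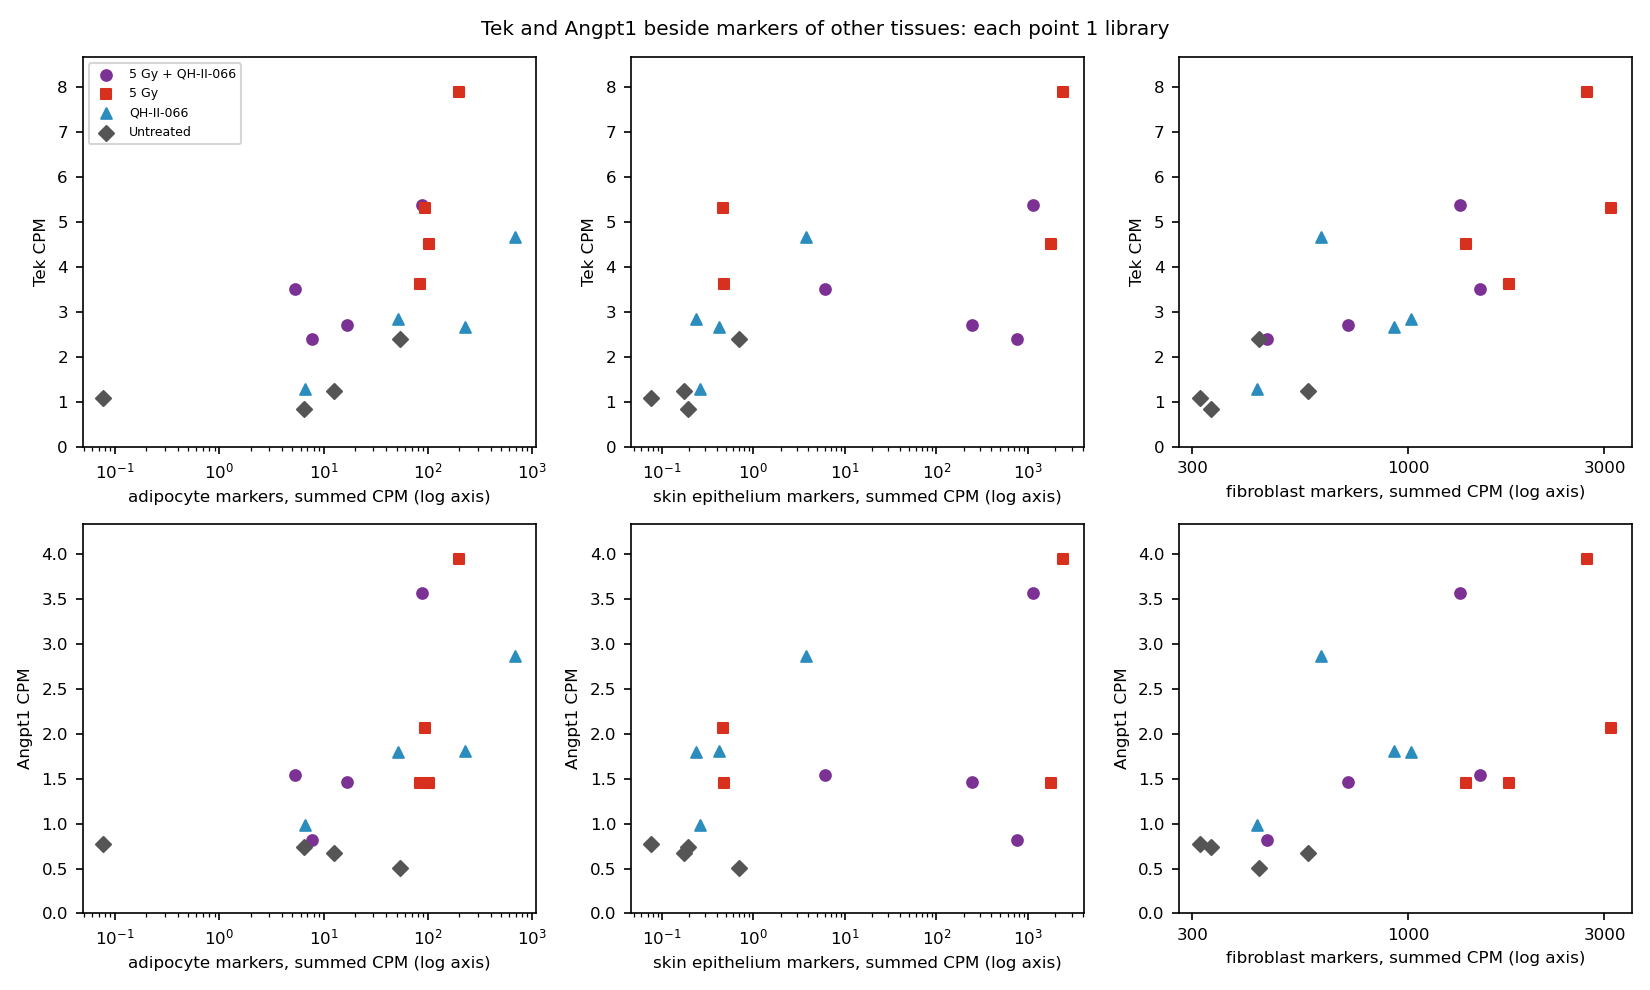
Tek (upper panels) and Angpt1 (lower panels) in each library, in CPM on linear axes from 0, against the summed CPM of adipocyte, skin epithelium and fibroblast markers on log axes; symbols mark the groups. The library with the highest Tek and Angpt1, at 7.87 and 3.95 CPM, is replicate 2 of the 5 Gy group, with 199 CPM of adipocyte and 2432 CPM of skin markers.

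Profiles over the 16 libraries, as log2 CPM centred on each gene's mean, were compared by their root mean square difference, a description that rests on libraries differing in depth and tissue. Nearest to Tek, whose own SD was 0.90, were Lifr at 0.32, Ebf1 at 0.35 and Slit3 at 0.38, where the median over 11882 genes was 0.957. Their log2 differences after 5 Gy were 1.68 ± 0.37 for Lifr, 1.74 ± 0.44 for Ebf1 and 1.82 ± 0.34 for Slit3, beside 1.94 ± 0.43 for Tek; they were picked for likeness to Tek over the same libraries, which largely fixes these values, so they are given as a description. Nearest to Cdh5 were Cd93 at 0.17, Kdr at 0.20 and Adgrf5 at 0.21, with a median of 0.555 over genes. Nearest to Vegfa were the hypoxia-induced genes Car9 at 0.11, Adm at 0.14 and Slc2a1 at 0.16, with a median of 0.42 over genes, and nearest to Angpt2 were Tmem136 at 0.17, Map2k6 at 0.22 and Gjc1 at 0.22. Among the 10, the closest profiles were those of Kdr and Pecam1, at 0.15, and Tie1 and Pecam1, at 0.19. Tek and Angpt1 were 0.50 apart, and each was the member nearest to the other. The measure grows with a gene's own SD, which was larger for Tek and Angpt1 than for Kdr, Tie1 and Pecam1.

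**Figure D5:**
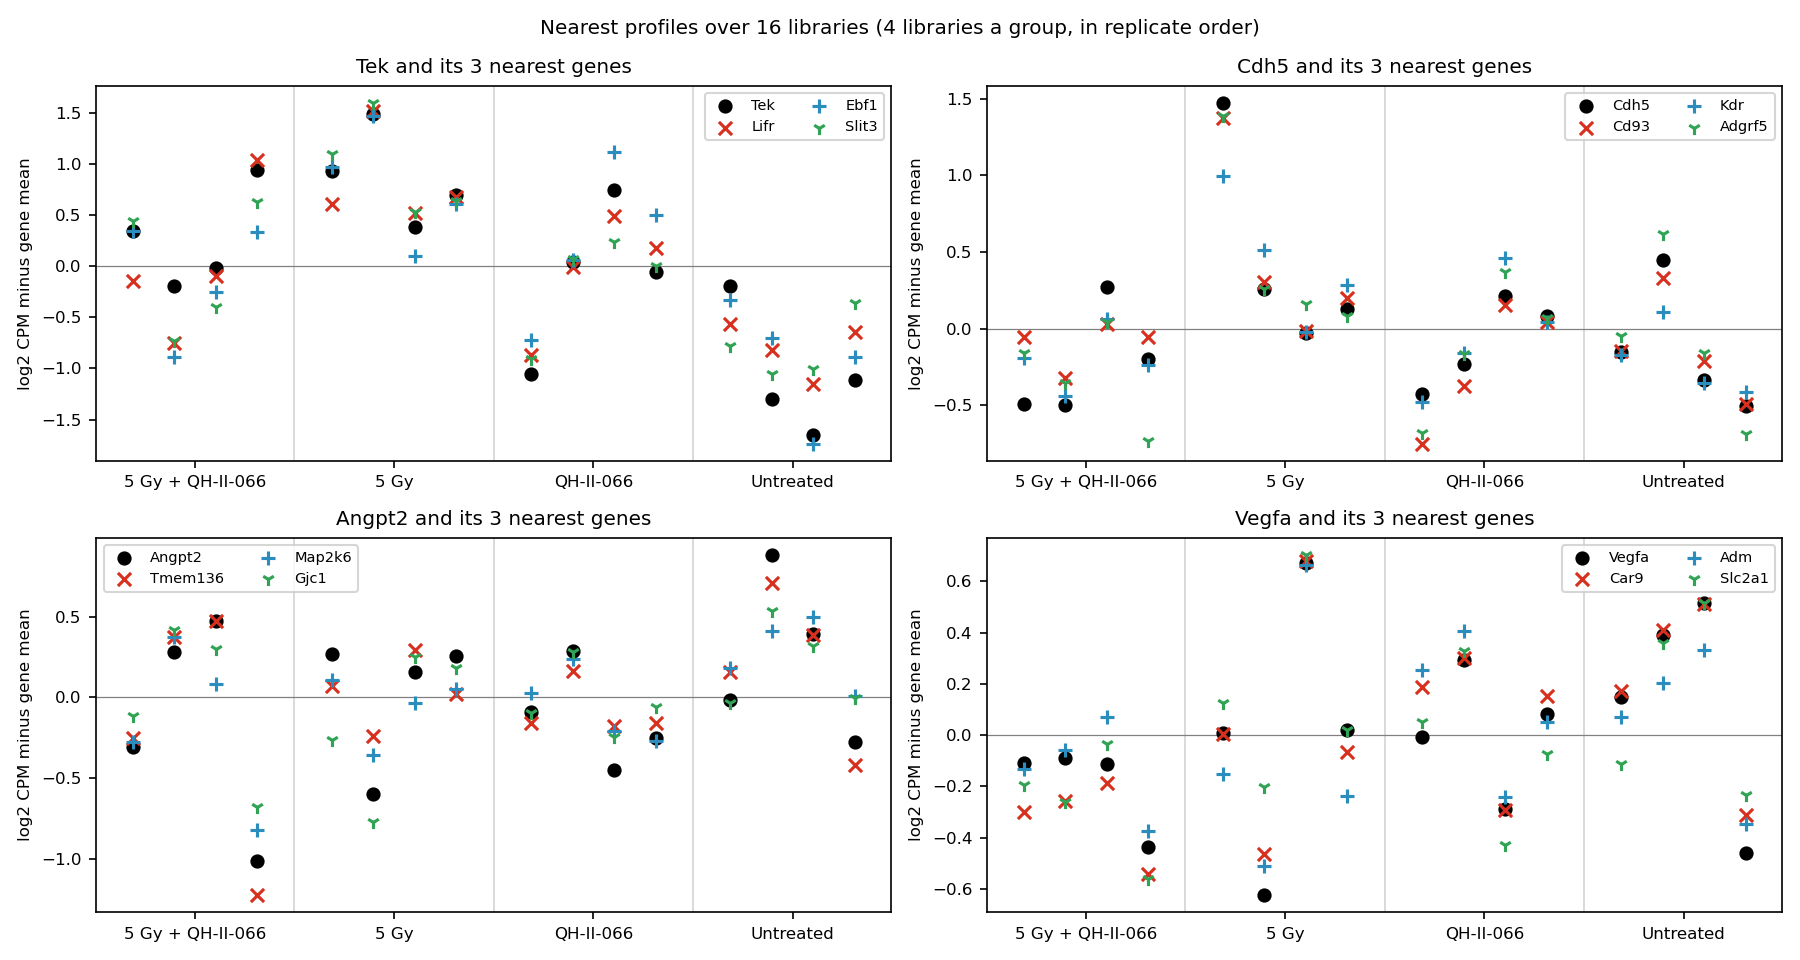
Profiles over the 16 libraries of Tek, Cdh5, Angpt2 and Vegfa with the 3 genes nearest to each, as log2 CPM minus the gene's mean; libraries run by group and replicate, and symbols mark the genes. The nearest gene to Vegfa, Car9, lies at a root mean square difference of 0.11, and the nearest to Tek, Lifr, at 0.32.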

How the data were processed

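The authors deposited raw counts per gene, whole numbers with no normalization; per the file headers, featureCounts 1.6.0 assigned read pairs to exons and ignored strand, so overlapping genes share fragments. The submitters' processing notes list STAR 2.4.1a, featureCounts, edgeR and the mm10 build. Per the labels' protocols, RNA was enriched by transcriptome capture.

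Groups came from sample titles. A quasi-likelihood model with 4 group means was fitted to all 16 libraries (edgeR 4.0.16 under R 4.3.3), robustly, after filterByExpr and TMM. Tests were two-sided, with Benjamini-Hochberg adjusted p-values over 16101 genes and a threshold of 0.05. The SE of an edgeR log2 difference was worked back from the test, as its absolute value divided by the square root of the F statistic. Alternatives were DESeq2 1.42.0, limma 3.58.1 (voom with sample weights), other scaling and filters, left-out libraries, a replicate block and marker scores. The test was checked on simulated data.

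Named genes are the 10 and, of each list, those past the threshold (at most 6) or else the 2 with the smallest p after 5 Gy, plus the 3 nearest profiles of Tek, Cdh5, Angpt2 and Vegfa among genes with a mean log2 CPM (prior count 2) of at least 1. The genes, lists and comparisons were chosen with earlier results of these data known. Upstream sequences are RefSeq's (GRCm38.p6).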

Additional observations from a re-analysis of the deposited data

Results flagged for a closer look

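Across 40 groups of 4 libraries (10 genes in 4 treatment groups), 4 held a library far from the other 3 by Dixon's test at its 95% critical value of 0.829; chance flags about 1 group in 20. In the combined group, Flt1 was 40.2 CPM in replicate 4, against 17.5 CPM or less in the other 3. In the same library Vegfa was the lowest of its group at 85.4 CPM, against 107 to 109 CPM in the others. It is the shallowest library, and its skin markers summed to 1129 CPM. In the 5 Gy group, Cdh5 was 81.6 CPM in replicate 1, against 28.8 to 35.0 CPM in the other 3, and Angpt2 was 28.7 CPM in replicate 2, against 48.5 to 52.3 CPM in the other 3. The causes were not tested.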

How the results depend on the processing

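For 5 Gy against untreated, the edgeR test called 1 of the 10 genes and 203 of all genes; DESeq2 called 4 and 1224, limma-voom with sample weights 2 and 790. The count of the 10 was 0, and that of all genes 22, without the 5 skin-bearing libraries, 0 and 2 with a skeletal muscle score as covariate, and 0 and 0 with an adipocyte score (chosen after seeing the data). With the 2 compared groups alone 0 of the 10 were called, Tek with an adjusted p of 0.0558 in edgeR; the interaction has no such fit. Same-numbered replicates did not pair (12 of 24 correlations of deviations over 0.1, range -0.63 to 0.55; 2 of 16 libraries matched their own number best); with a replicate block 0 of the 10 were called and Tek was 1.95 ± 0.48 (adjusted p = 0.0680, edgeR), and no other call among the 10 changed. Leaving out 1 library, the 10 gave 0 to 2 calls and all genes 0 to 739: 0 without replicate 2 of 5 Gy and 739 without replicate 3 of 5 Gy. In the other comparisons edgeR called 0 genes, and leaving out any 1 library left 0. For QH-II-066 against untreated DESeq2 called 16 genes and limma-voom 4622, with 2 of the 10. DESeq2 called 206 genes for the combined group against untreated, 123 against 5 Gy (limma-voom 84), 48 against QH-II-066 and 59 for the interaction (limma-voom 492, with 2 of the 10). The causes were not tested.

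Signs changed only for values that passed no edgeR test. Leaving out the skin-bearing libraries kept only replicates 1 and 3 of 5 Gy and replicate 1 of the combined group. The log2 differences were then 0.19 for Vegfa in 5 Gy against untreated and -0.24 for Flt1 in the combined group against untreated. They were 0.037 for Tie1, -0.31 for Flt1 and -0.21 for Angpt2 in the combined group against QH-II-066, and -0.11 for Angpt2 in the interaction. With the adipocyte score they were 0.31 for Angpt2 and 0.17 for Vegfa in 5 Gy against untreated; -0.016 for Kdr, -0.32 for Flt1, -0.077 for Cdh5, 0.074 for Angpt2 and 0.089 for Vegfa in QH-II-066 against untreated; -0.054 for Kdr and -0.036 for Flt1 in the combined group against untreated. The same score gave 0.083 for Tek and 0.19 for Angpt1 in the combined group against 5 Gy, 0.15 for Tie1, 0.036 for Pecam1, 0.37 for Angpt1, -0.28 for Angpt2 and 0.12 for Sox17 against QH-II-066, and 0.11 for Flt1 and -0.58 for Angpt2 in the interaction. With limma-voom they were -0.080 for Cdh5 in QH-II-066 against untreated, -0.010 for Kdr and -0.24 for Flt1 in the combined group against untreated, 0.15 for Angpt2 against 5 Gy, -0.25 for Flt1 against QH-II-066 and 0.031 for Vegfa in the interaction. The muscle score gave -0.00047 for Cdh5 in QH-II-066 against untreated, -0.048 for Kdr in the combined group against untreated and -0.0070 for Flt1 against QH-II-066. With no filter Kdr was -0.0031 in the combined group against untreated, and with the compared groups alone Tie1 was 3.5e-05 against QH-II-066.

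With 1 library left out, the log2 differences crossed 0 over these ranges: -0.37 to 0.083 for Vegfa in 5 Gy against untreated; -0.093 to 0.15 for Flt1 and -0.10 to 0.25 for Cdh5 in QH-II-066 against untreated. In the combined group against untreated they were -0.079 to 0.12 for Kdr, -0.27 to 0.26 for Flt1 and -0.29 to 0.13 for Cdh5, and against 5 Gy -0.80 to 0.11 for Angpt1 and -0.32 to 0.12 for Angpt2. Against QH-II-066 they were -0.18 to 0.11 for Tie1, -0.54 to 0.21 for Angpt1, -0.15 to 0.29 for Angpt2, -0.33 to 0.21 for Flt1 and -0.22 to 0.060 for Pecam1, and for Vegfa in the interaction -0.29 to 0.15. Scaling by DESeq2's size factors moved the median of all genes by at most 0.022. Sox17 and Angpt1 were counted by few fragments, which limits their precision.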
